A study of Mus musculus with 48 samples.

Results

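The 7 genes described here, Gpr6, Gnal, Adcy5, Rgs9, Pde10a, Pde1b and Rxrg, are known for their part in signalling in medium spiny neurons, the projection neurons of the striatum. Each was taken as the row of the deposited table that carried its symbol and no other, and each of the 7 had exactly 1 such row. They are 7 of the 22180 genes with a row of their own, of which 17274 passed the filter on low values, all 7 included. RNA was measured in the striatum (STR), the prefrontal cortex (PFC), the habenula (HAB) and the substantia nigra with ventral tegmental area (SN/VTA) of male C57BL/6 mice, with no mutation or drug treatment named in the labels and no age given there. The light phase of the day lasted 12 h and the dark phase as long, and tissue was collected every 4 h through 2 daily cycles, at 3, 7 and 11 h after the lights came on (Zeitgeber time, ZT) and, in the dark, at ZT 15, 19 and 23. Replicate 1 of each group was from the first daily cycle and replicate 2 from the second, which gave 24 groups of tissue and time with 2 arrays each, 12 arrays per tissue and 48 in all. One array held pooled RNA of 3 mice, so the spread given below is between pools and not between single animals.

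In medium spiny neurons, dopamine, adenosine and orphan receptors act through cyclic AMP. The G protein alpha subunit olf, made from Gnal, couples stimulatory receptors to adenylyl cyclase, and Adcy5 encodes the main cyclase of the striatum. Rgs9 encodes a protein that speeds the turn-off of inhibitory G proteins, Pde10a and Pde1b encode phosphodiesterases that break down cyclic nucleotides, Gpr6 encodes an orphan receptor of neurons of the indirect pathway, and Rxrg encodes a nuclear receptor of the retinoid X family.

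Promoter sequences are shown for 4 of the genes because these windows hold the matches to short motifs that differ between them; capitals mark the matches. The windows are from RefSeq, in build GRCm38.p6, and run 5′ to 3′ on the strand of the gene over 300 bases, of which 250 lie before the annotated start and 50 after it. RefSeq gave 10 such windows for 6 of the genes. Gpr6 lies on the minus strand at chr10:41072241-41072540, the second annotated start of Rxrg on the plus strand at chr1:167618015-167618314, Rgs9 on the minus strand at chr11:109298132-109298431 and Adcy5 on the plus strand at chr16:35154614-35154913.
Gpr6: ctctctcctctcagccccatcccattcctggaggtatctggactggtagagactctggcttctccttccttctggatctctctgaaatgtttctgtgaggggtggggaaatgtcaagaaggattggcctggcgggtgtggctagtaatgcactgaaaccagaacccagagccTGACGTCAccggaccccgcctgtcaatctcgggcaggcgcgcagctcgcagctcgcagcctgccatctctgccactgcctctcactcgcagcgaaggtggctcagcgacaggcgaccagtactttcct
Rxrg: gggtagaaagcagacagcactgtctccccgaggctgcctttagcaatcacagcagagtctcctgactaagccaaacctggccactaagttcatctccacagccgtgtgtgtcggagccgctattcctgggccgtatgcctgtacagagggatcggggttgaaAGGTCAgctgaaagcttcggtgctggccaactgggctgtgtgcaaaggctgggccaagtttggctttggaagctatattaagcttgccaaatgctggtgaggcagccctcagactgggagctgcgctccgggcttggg
Rgs9: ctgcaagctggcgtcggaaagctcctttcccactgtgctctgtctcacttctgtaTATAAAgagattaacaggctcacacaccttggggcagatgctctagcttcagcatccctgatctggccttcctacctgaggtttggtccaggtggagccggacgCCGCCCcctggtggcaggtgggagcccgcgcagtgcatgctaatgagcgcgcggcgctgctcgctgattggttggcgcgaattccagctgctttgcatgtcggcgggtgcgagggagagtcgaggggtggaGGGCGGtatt
Adcy5: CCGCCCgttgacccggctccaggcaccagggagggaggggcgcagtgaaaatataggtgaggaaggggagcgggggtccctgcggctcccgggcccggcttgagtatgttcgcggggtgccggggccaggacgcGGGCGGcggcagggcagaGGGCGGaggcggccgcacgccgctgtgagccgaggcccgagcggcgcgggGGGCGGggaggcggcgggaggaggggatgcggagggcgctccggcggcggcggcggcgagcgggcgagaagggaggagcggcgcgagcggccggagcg
The motifs were searched on both strands. In the Gpr6 window the full cyclic AMP response element, TGACGTCA, begins at base -78, counted from the start site; it occurs in 1 of the 10 windows and in 1.8% of 32851 RefSeq promoter windows of the same length. Its half-site TGACG overlaps it and occurs in 20.8% of all windows. The second Rxrg window holds the nuclear receptor half-site AGGTCA at base -88, a match found in 16.3% of all windows. The Rgs9 window holds TATAAA at base -195, which 13.6% of all windows also hold, and 2 matches to the GC box GGGCGG. The Adcy5 window holds 4 GC boxes and is 79.0% G or C, against a median of 52.7% over all windows; 5 of the 10 windows and 35.7% of all windows hold a GC box. The E-box CACGTG, the letters bound by clock factors, occurs in 0 of the 10 windows and in 7.2% of all. These matches are letters in a window and were not tested for binding.

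Values are the deposited levels on the log2 scale, so a difference of 1 is a doubling in measured signal. Levels on an array depend on the probes, so they are compared between tissues for 1 gene and not between genes, with 1 exception. Low levels of Rxrg and Gpr6 are set beside those of Slc6a3 below. The 48 arrays had medians from 5.84 to 6.07 over all rows. Across the genes tested, the 2 arrays of a group correlated at 0.982 to 0.995. Each of the 48 arrays correlated best with an array of its own labelled tissue. Drd1, the D1 dopamine receptor of direct pathway neurons, averaged 9.50 in STR, 6.78 in PFC, 5.53 in HAB and 5.44 in SN/VTA. Slc6a3, the dopamine transporter, averaged 11.61 in SN/VTA and Chrna3, a nicotinic receptor subunit of the habenula, 10.61 in HAB. Neurod6, a marker of cortical and hippocampal excitatory neurons, averaged 9.01 in PFC and also 8.41 in HAB, against 5.52 in SN/VTA. In these bulk samples, fewer cells of a type and less RNA per cell cannot be told apart.

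Gpr6, the receptor at the top of this pathway, had levels of 8.03 to 8.71 on the 12 STR arrays, with a median of 8.35. The levels were 6.15 to 6.71 in PFC (median 6.53), 5.55 to 6.12 in HAB (median 5.76) and 6.19 to 6.56 in SN/VTA (median 6.36). No STR array overlapped with any other array, and the lowest STR value lay 1.32 above the highest of the other 36 arrays, which was a PFC array. STR exceeded PFC by 1.87 ± 0.07 (SE), or 3.66-fold, HAB by 2.59 ± 0.07, or 6.03-fold, and SN/VTA by 1.98 ± 0.07, or 3.96-fold, with limma adjusted p-values of 9.21e-21, 1.01e-23 and 5.55e-21. A tissue call here needs an adjusted p under 0.05 and a difference of at least 1, and Gpr6 passed it against all 3 tissues.

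Gnal, the G protein alpha subunit that carries the signal of such receptors, was at 10.43 to 10.75 in STR (median 10.63). It was at 9.19 to 9.39 in PFC (median 9.30), 9.02 to 9.62 in HAB (median 9.31) and 9.26 to 9.48 in SN/VTA (median 9.35). The STR arrays again stood above all others, by 0.81 at the closest, where a HAB array came next. The differences were 1.32 ± 0.05 against PFC (2.50-fold, adjusted p = 2.98e-20), 1.33 ± 0.05 against HAB (2.51-fold, adjusted p = 7.68e-20) and 1.27 ± 0.05 against SN/VTA (2.41-fold, adjusted p = 1.60e-19) in limma. Another row, which the annotation gives to both Mppe1 and Gnal, averaged 7.24 ± 0.15 in STR, 7.15 ± 0.14 in PFC, 6.91 ± 0.17 in HAB and 7.07 ± 0.14 in SN/VTA (SD, n = 12 each), with overlapping ranges. Since its probes cannot be given to 1 gene, that row was not tested.

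Adcy5, the cyclase that olf activates, had levels of 10.35 to 10.74 in STR (median 10.46). Its levels were 8.38 to 8.87 in PFC (median 8.68), 8.36 to 8.75 in HAB (median 8.52) and 8.67 to 8.90 in SN/VTA (median 8.79). All STR arrays lay at least 1.45 above every other array. STR was higher than PFC by 1.82 ± 0.05 (3.54-fold, adjusted p = 7.71e-24 in limma), than HAB by 1.94 ± 0.05 (3.84-fold, adjusted p = 3.92e-24) and than SN/VTA by 1.70 ± 0.05 (3.25-fold, adjusted p = 9.84e-23).

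Rgs9, whose striatal product acts on the G proteins of dopamine and opioid receptors, was at 11.16 to 11.67 in STR (median 11.34). The other arrays gave 8.23 to 8.87 in PFC (median 8.71), 7.83 to 8.33 in HAB (median 8.03) and 7.88 to 8.20 in SN/VTA (median 8.03). The gap between the lowest STR array and the highest other array, a PFC array, was 2.29, which was the widest gap of the 7 genes. STR exceeded PFC by 2.74 ± 0.06 (6.68-fold, adjusted p = 1.67e-26), HAB by 3.31 ± 0.06 (9.92-fold, adjusted p = 2.08e-28) and SN/VTA by 3.32 ± 0.06 (9.96-fold, adjusted p = 6.68e-28) in limma.

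Pde10a, which breaks down both cyclic AMP and cyclic GMP, was at 10.29 to 10.61 in STR (median 10.44). It was at 7.95 to 8.59 in PFC (median 8.26), 7.89 to 8.27 in HAB (median 8.19) and 7.86 to 8.09 in SN/VTA (median 8.08). Its gap between STR and all other arrays was 1.71. STR was higher by 2.19 ± 0.05 against PFC (4.55-fold, adjusted p = 1.52e-24), by 2.29 ± 0.05 against HAB (4.88-fold, adjusted p = 1.12e-24) and by 2.43 ± 0.05 against SN/VTA (5.37-fold, adjusted p = 3.71e-25) in limma. The 3 differences of Pde10a lay closer together than those of Rgs9 or Rxrg.

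Pde1b, a phosphodiesterase switched on by calcium and calmodulin, had levels of 11.38 to 11.68 in STR (median 11.52). PFC arrays gave 9.30 to 9.72 (median 9.52), HAB arrays 9.45 to 10.16 (median 9.96) and SN/VTA arrays 9.91 to 10.08 (median 9.98). Every STR array was above every other array, by 1.22 at the closest, and the next highest array was from HAB. STR exceeded PFC by 2.01 ± 0.06 (4.03-fold, adjusted p = 6.13e-23), HAB by 1.59 ± 0.06 (3.02-fold, adjusted p = 4.23e-20) and SN/VTA by 1.53 ± 0.06 (2.88-fold, adjusted p = 8.09e-20) in limma.

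Rxrg, the nuclear receptor among the 7 genes, ran from 8.81 to 9.76 in STR (median 9.52). It ran from 5.93 to 6.58 in PFC (median 6.33), from 5.47 to 6.02 in HAB (median 5.67) and from 7.05 to 7.39 in SN/VTA (median 7.20). The STR arrays lay at least 1.42 above the rest, with SN/VTA next. STR exceeded PFC by 3.16 ± 0.07 (8.92-fold, adjusted p = 2.41e-25), HAB by 3.73 ± 0.07 (13.3-fold, adjusted p = 8.45e-27) and SN/VTA by 2.23 ± 0.07 (4.69-fold, adjusted p = 1.82e-21) in limma. The HAB means of Rxrg (5.71) and Gpr6 (5.77) lay below all array medians and near that of Slc6a3 in HAB (6.00). No detection calls were used, so the folds of both genes over HAB are ratios of measured signals above an unknown background. Rxrg in PFC (mean 6.29) and Gpr6 in PFC (6.49) and SN/VTA (6.38) were not far above Slc6a3 in PFC (6.06) and STR (6.26). The same limit applies to those folds. Slc6a3 has its own probes, so its level is no measure of the background of Rxrg or Gpr6. Rxrg had the widest spread of the 7 genes within STR, with an SD of 0.24, against 0.08 for Gnal, the narrowest.

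**Figure D1:**
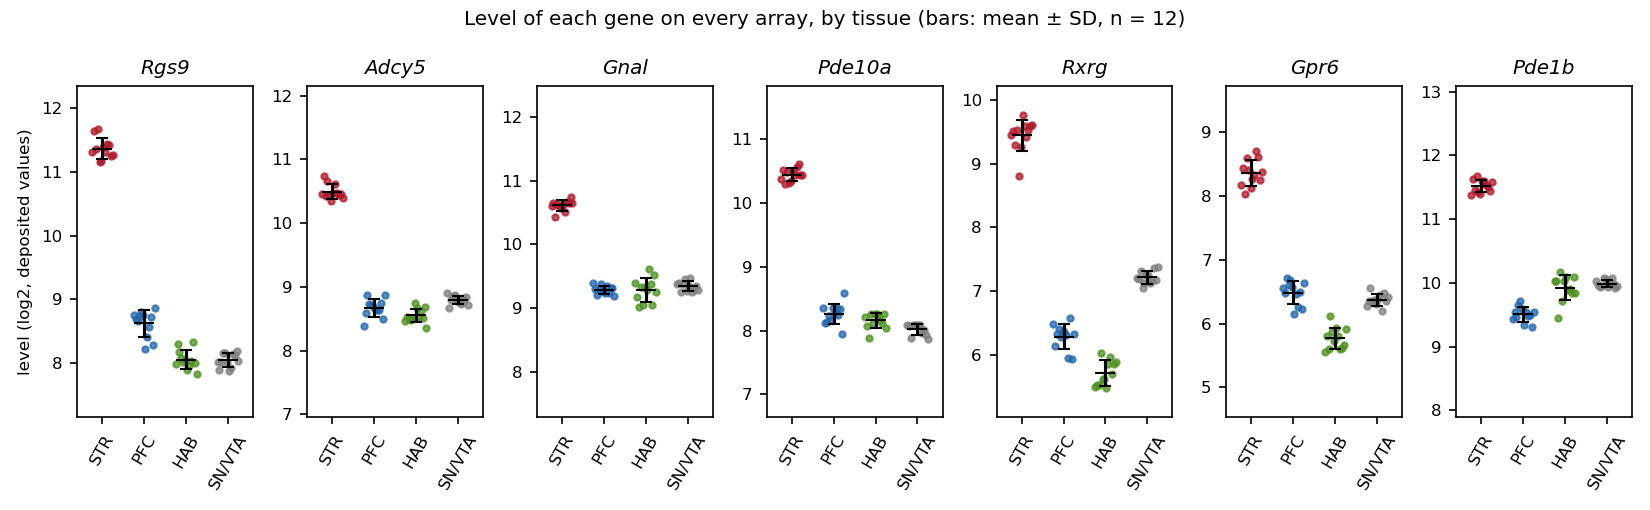
Level of each gene on every array (vertical axis, deposited log2 values; 1 panel per gene, each with its own offset) for STR, PFC, HAB and SN/VTA; points are arrays and bars the mean ± SD over 12 arrays. In all 7 panels the STR points lie above every point of the other tissues, and in the Rxrg panel the SN/VTA points lie between STR and PFC.

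All 7 genes were called higher in STR in each comparison. The background for this count was 2.64% of the 17274 genes tested for STR over PFC, 1.29% for STR over HAB and 1.95% for STR over SN/VTA. The 7 genes are known from medium spiny neurons and were chosen with earlier results of these data known. The counts and ranks given here therefore describe the 7 genes and are no independent test of them. Of the 7 genes 0 were called lower in STR, beside 3.59%, 2.14% and 3.24% of all genes in the same comparisons. Genes higher in STR than in each of the 3 other tissues made up 0.318% of the genes tested, or 55 genes, and the 7 genes were among them. All 12 STR arrays lay above all 36 others for 2.04% of the genes tested, and by at least 1 for 0.151%; 6 of the 7 genes had such a gap, and Gnal, at 0.81, did not. Ordered by STR minus the mean of the other tissues, a difference and not a level, Rgs9 ranked 4 of 17274 with 3.12, Rxrg 6 with 3.04, Pde10a 14 with 2.30, Gpr6 19 with 2.15, Adcy5 34 with 1.82, Pde1b 42 with 1.71 and Gnal 83 with 1.30. The median of the 7 was 2.15, against -0.02 over all genes tested.

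**Figure D2:**
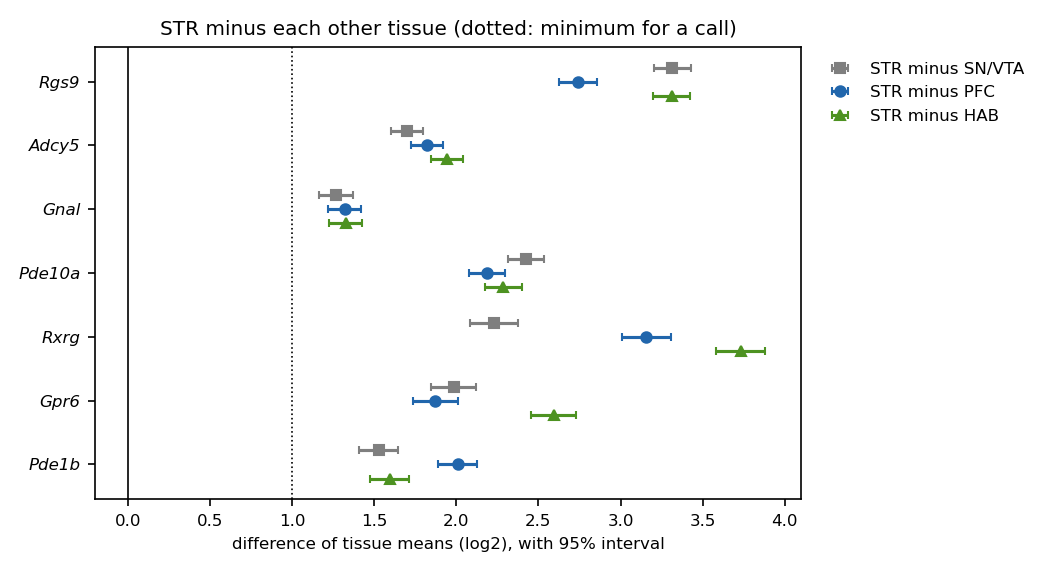
STR minus SN/VTA, PFC and HAB for each gene (horizontal axis, difference of tissue means on the log2 scale) with 95% intervals from limma; the dotted line marks the minimum for a call. All 21 intervals lie above that line, Gnal closest to it, and the 3 differences of Rxrg lie farthest apart.

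Below STR, the order of the means of the other tissues differed from gene to gene. PFC was second for Rgs9, Pde10a and Gpr6, and SN/VTA was second for Adcy5, Gnal, Rxrg and Pde1b. HAB was lowest for Adcy5, Gnal, Rxrg and Gpr6, SN/VTA for Rgs9 and Pde10a, and PFC for Pde1b. At an adjusted p of 0.05 in limma, the second place was not separated from the third for Gnal, Pde10a, Gpr6 and Pde1b. The third place was not separated from the lowest for Rgs9 and Gnal. The neighbours in this order were close: of 14 neighbouring pairs below STR, 12 overlapped in their array values, and 6 did not differ beyond their spread at an adjusted p of 0.05. Adcy5 in PFC against HAB and in PFC against SN/VTA, and Pde10a in HAB against SN/VTA, were among the 8 that did, with differences of 0.12, -0.12 and 0.14; with 1 array left out these kept an adjusted p under 0.05 in 40, 44 and 44 of 48 fits. The 2 Adcy5 differences lost it after quantile normalization (0.10, adjusted p = 0.055, and -0.07, adjusted p = 0.204) and in 1 cycle alone each (0.05, adjusted p = 0.47, and -0.04, adjusted p = 0.634). The Pde10a difference lost it in each cycle alone (0.15 and 0.13, adjusted p = 0.0794 and 0.0984) and was -0.0012 with arrays centred on their medians (adjusted p = 0.985). The other 5 pairs kept it in all 11 alternatives that left out no single array.

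Only Rxrg passed the tissue call among the other tissues. It was lower in HAB than in SN/VTA, with a difference of -1.50 ± 0.07 (2.83-fold, limma adjusted p = 3.76e-17), where 1.58% of the genes tested were called lower in HAB and 2.00% higher. Rxrg in PFC was below SN/VTA by a difference of -0.93 ± 0.07 (adjusted p = 8.50e-13), under the minimum of 1, and the array values did not overlap; with each array centred on its median the difference was -1.04 and passed. Of the 7 genes, 0 were called for PFC against SN/VTA, where 3.15% of genes were called higher and 6.18% lower, and 0 for PFC against HAB, where the shares were 2.48% and 3.20%. By adjusted p alone, without the minimum size, 5, 4 and 5 of the 7 passed for PFC against SN/VTA, HAB against SN/VTA and PFC against HAB, beside 75.1%, 67.7% and 72.4% of all genes. Gpr6 was higher in PFC than in HAB by 0.72 ± 0.07 and lower in HAB than in SN/VTA with a difference of -0.61 ± 0.07, and the array values overlapped in neither pair. Rgs9 was higher in PFC than in HAB by 0.57 ± 0.06 and than in SN/VTA by 0.58 ± 0.06, and Pde1b differed the other way, with -0.42 ± 0.06 for PFC minus HAB and -0.48 ± 0.06 for PFC minus SN/VTA.

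Other genes of the pathway were read from lists by role, each gene set against the background of 0.318% higher and 0.179% lower in STR than in each other tissue. Of 7 other adenylyl cyclases tested, 0 were higher or lower than in each other tissue, and all 7 had a negative difference between STR and the mean of the others, with a median of -0.46. Adcy1, a calmodulin-stimulated cyclase, differed by -1.72 ± 0.05 and Adcy8, another of that kind, by -1.07 ± 0.05. Adcy2 differed by -0.51 ± 0.04 and Adcy6, the closest relative of Adcy5, by -0.46 ± 0.04. Adcy5 was thus the only one of the 8 cyclases tested with a positive difference from the mean of the others. That held also with each array centred on its median and after quantile normalization. Adcy7, Adcy4 and Adcy9 are named after their values were seen. Adcy7 was at -0.05 ± 0.04 (limma adjusted p = 0.27). Its STR level was above HAB by 0.26 and PFC by 0.15, with -0.57 against SN/VTA. STR was also above PFC for Adcy4 (0.03) and above SN/VTA for Adcy9 (0.03). For Adcy1, Adcy2, Adcy6 and Adcy8 STR was below each other tissue. Unless single tissues are named, values of these lists are STR minus the mean of the other tissues on the log2 scale.

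Of 23 other G protein and RGS genes, 1 was higher and 1 lower in STR than in each other tissue, with a median of 0.05 (-0.05 with arrays centred on their medians, -0.02 after quantile normalization). Gng7, the gamma subunit that pairs with olf in the striatum, was the higher one at 2.10 ± 0.05, with 11.29 in STR, 9.14 in PFC, 9.75 in HAB and 8.67 in SN/VTA. Rgs6, a relative of Rgs9 in the R7 family, was the lower one at -1.39 ± 0.04. Rgs2, a regulator that acts mainly on Gq, was at 1.29 ± 0.03 and missed the call against SN/VTA, and Ric8b, a folding factor for olf, was at 0.94 ± 0.03. Gnb5, the obligate partner of R7 proteins, was picked after its values were seen: it averaged 9.91 in STR, 8.83 in PFC, 9.12 in HAB and 9.11 in SN/VTA. The remaining R7 genes on the list, also named after their values were seen, were closer to 0 than Gnb5 at 0.89 ± 0.03. Rgs11 was at 0.29 ± 0.04, Rgs7bp at -0.07 ± 0.04, Rgs7 at -0.10 ± 0.03 and Rgs9bp at -0.11 ± 0.08.

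Of 16 other phosphodiesterases, 1 was higher and 0 lower than in each other tissue, with a median of -0.01 that was below 0 under both other scalings as well. Pde7b, which is specific for cyclic AMP, was the higher one at 1.46 ± 0.07. Pde1c, in the calcium-dependent family of Pde1b, was at 0.74 ± 0.06, Pde8b at 0.73 ± 0.04, and Pde5a, specific for cyclic GMP, at -0.72 ± 0.05. Pde1a, the other relative of Pde1b and named here after its values were seen, averaged 8.56 in STR, against 9.88 in PFC, 8.26 in HAB and 7.57 in SN/VTA, an order with PFC on top. Among 17 cyclic nucleotide effectors and kinase substrates, 1 was higher in STR than in each other tissue and 0 lower, with a median of 0.20. Rasd2, a small GTPase of the striatum, was the higher one at 2.16 ± 0.04, and Rasgrp2, an exchange factor for Rap, was at 1.68 ± 0.05 without passing all 3 comparisons. Arpp19, a substrate of protein kinase A, was at 0.99 ± 0.06, and Prkg2, a kinase driven by cyclic GMP, at -0.94 ± 0.11.

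Of 14 other retinoid genes, 2 were higher and 0 lower than in each other tissue, with a median of -0.01 (-0.11 with arrays centred on their medians). Rarb, the retinoic acid receptor beta that pairs with retinoid X receptors, was higher by 2.25 ± 0.05, and Crabp1, which binds retinoic acid in the cytoplasm, by 1.72 ± 0.09. Aldh1a1 and Aldh1a2, which make retinoic acid, were at -1.08 ± 0.05 and -0.71 ± 0.09 and did not pass all 3 comparisons. For Aldh1a1 STR was above PFC by 0.59, with differences of -1.10 against HAB and -2.74 against SN/VTA. For Aldh1a2 STR was below each other tissue. The last list was of striatal and related orphan receptors, so high STR levels on it are no separate result. Of its 5 genes tested, Gpr83 (2.10 ± 0.06) and Gpr52 (2.03 ± 0.05) were higher than in each other tissue. Gpr149 was at 1.71 ± 0.06 and Gpr139 at 0.44 ± 0.05, and the list median was 1.71. Gpr12, named after its values were seen, was at 0.29 ± 0.05, with -0.33 against HAB.

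**Figure D3:**
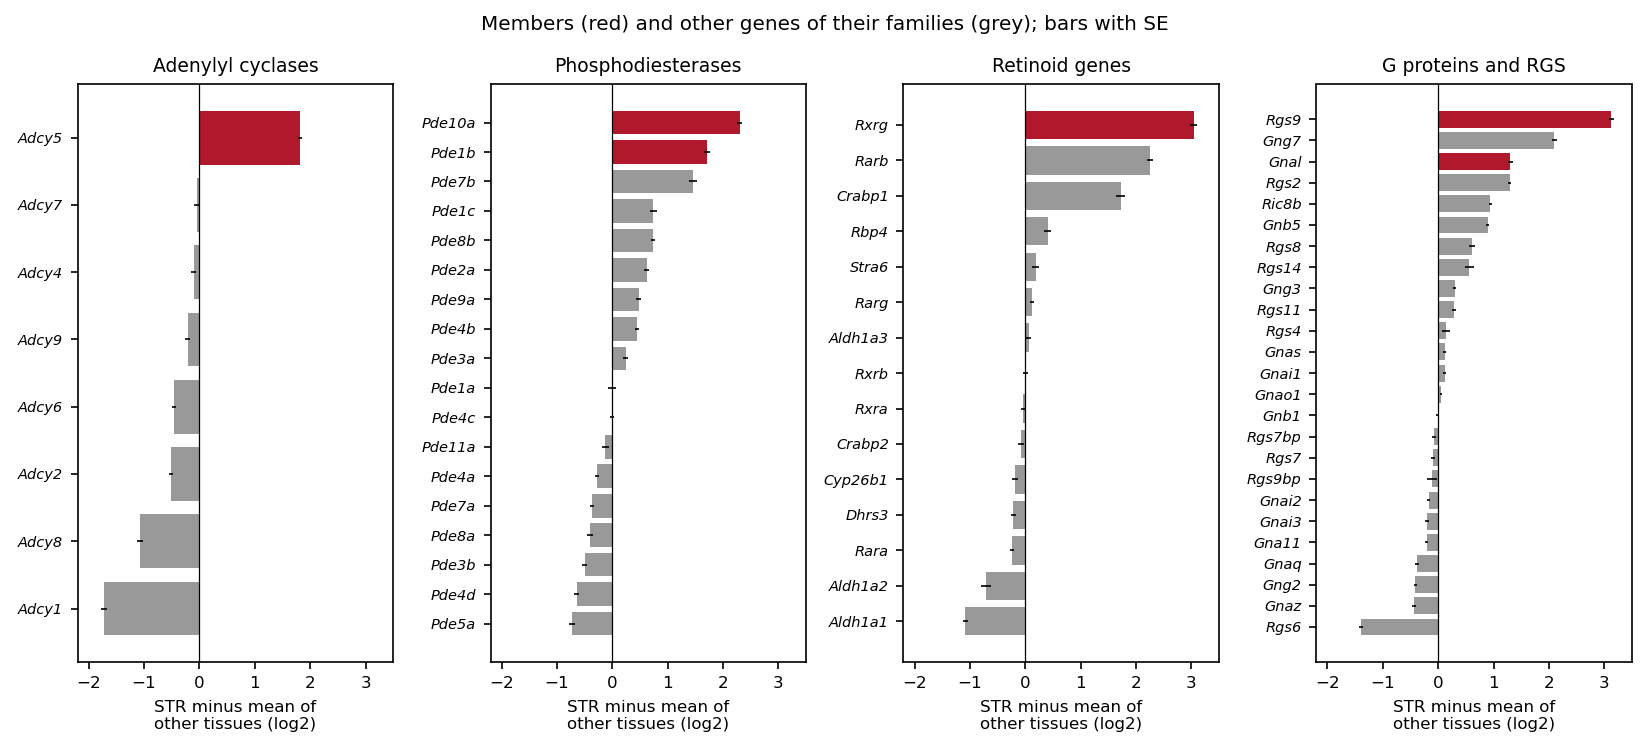
STR minus the mean of the other tissues (horizontal axis, log2) for the cyclases, phosphodiesterases, retinoid genes, and G proteins with RGS proteins. Bars carry the SE from limma. Genes of the 7-gene set that belong to these families are red and other family members grey, and Gpr6 is not shown. Adcy5 is the only bar right of 0 among the cyclases, and Rgs6 lies opposite Rgs9.

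Some markers of both classes of medium spiny neurons were higher in STR and others were not. Of 9 direct pathway genes 6 were higher than in each other tissue and 0 lower (median 1.76), led by Drd1 at 3.58 ± 0.06, with the neuropeptide gene Tac1 at 2.34 ± 0.05, Slc35d3 at 2.00 ± 0.06 and the muscarinic receptor gene Chrm4 at 1.82 ± 0.07. The 3 that did not pass, Ebf1 (-0.17 ± 0.05), Sfxn1 (-0.17 ± 0.04) and Eya1 (-0.28 ± 0.04), had differences below 0. Of 6 indirect pathway genes 2 were (median 0.84): the enkephalin gene Penk at 3.14 ± 0.06 and the dopamine receptor gene Drd2 at 3.08 ± 0.10. The other 4 did not pass: Sp9 was at 1.17 ± 0.05, Gucy1a1 at 0.51 ± 0.03, Oprd1 at 0.35 ± 0.05 and Ttc12 at -0.20 ± 0.05. Ebf1, Sfxn1, Eya1, Oprd1 and Ttc12 were named after their values were seen, to complete both lists. Drd2 also averaged 10.01 in SN/VTA, against 7.91 in HAB and 7.41 in PFC. Of 9 genes of striatal interneurons 1 was higher in STR than in each other tissue and 0 lower, with a median of 1.03. The higher one was Lhx8, named after its values were seen, with a mean of 6.57 in STR. Its means of 5.04 in PFC, 4.62 in HAB and 4.87 in SN/VTA were under the filter level of 5.05. Lhx8 thus passed the filter only through STR. The mean of the cortical neuron markers was 6.86 to 7.58 over the STR arrays, 9.35 to 9.59 in PFC, 7.73 to 8.38 in HAB and 6.76 to 7.32 in SN/VTA. The mean of the oligodendrocyte markers was 9.05 to 9.37 in STR, 8.23 to 8.78 in PFC, 9.07 to 9.95 in HAB and 10.12 to 10.42 in SN/VTA. The part of these cell types in the levels of the 7 genes was not tested.

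Likeness over the 48 arrays was ranked among the other genes tested, without predicted genes (named Gm plus digits or ending in Rik) and short RNAs named Mir or Snor. Most like the 7 genes, by the median Pearson r with them, were Tbc1d8 (0.972), Sh3rf2 (0.962), Clec12a (0.960), Tmem158 (0.960) and Strn (0.958). Leaving out the 7 themselves, Rgs9 was most like Drd1 and Sh3rf2 (both 0.980), Adcy5 like Tbc1d8 and Rarb (both 0.980), and Gnal like Tbc1d8 (0.977) and Rarb (0.975). Pde10a was most like Sh3rf2 (0.984) and Tmem158 (0.977), Pde1b like Rasd2 (0.980) and Plppr1 (0.971). Rxrg was most like Tac1 (0.977) and Slc35d3 (0.967), both on the direct pathway list, and Gpr6 like Penk (0.976) and Dlx6 (0.966). SN/VTA was second to STR for Rxrg (7.22), Tac1 (8.26) and Slc35d3 (6.49), and also for Drd2 of the indirect pathway list (10.01). Drd1, also on the direct pathway list, was lowest in SN/VTA (5.44). Whether Rxrg or Gpr6 follows 1 pathway was not tested. Among the 7 genes the 21 correlations ran from 0.883, for Gpr6 with Pde1b, to 0.984, for Rgs9 with Pde10a, with a median of 0.947. These values are descriptions over arrays of 4 tissues that differ in level, so the differences between tissues enter each r, and no r within a tissue was computed.

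The excess in STR was present at each time of day and in both cycles. STR minus the mean of the other tissues ran over the 6 times from 2.86 to 3.30 for Rgs9, from 2.65 to 3.28 for Rxrg and from 2.16 to 2.45 for Pde10a. It ran from 1.99 to 2.55 for Gpr6, from 1.67 to 2.01 for Adcy5, from 1.55 to 1.80 for Pde1b and from 1.18 to 1.40 for Gnal. The lowest difference at any time therefore stayed above 1 for each gene. In the first and second cycle it was 3.11 and 3.14 for Rgs9, 3.02 and 3.05 for Rxrg, 2.14 and 2.16 for Gpr6, and 1.77 and 1.87 for Adcy5. For Pde10a it was 2.30 in both, for Pde1b 1.70 and 1.72, and for Gnal 1.31 and 1.30.

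A 24-h rhythm, fitted as a cosine and a sine and tested with limma's F test, was called for 0 of the 7 genes in each tissue, for the rhythm shared by the tissues and for the difference of rhythm between tissues. The background was low within tissues: 0.0174% of genes were called in STR, 0.179% in PFC, 0.0174% in HAB and 0.162% in SN/VTA, while 5.55% were called for the shared rhythm and 0.0289% for the difference. At an unadjusted p under 0.05, 0 of the 7 genes passed in STR, HAB and SN/VTA, for the shared rhythm and for the difference, and 1 passed in PFC; over all genes these shares were 8.49%, 6.30%, 9.87%, 19.1%, 6.64% and 11.6%. The gene in PFC was Gpr6, with an amplitude from mean to peak of 0.16 ± 0.06 and a peak at ZT 6.8 (unadjusted p = 0.0461, adjusted p = 0.42). With time as a factor of 6 levels in place of the curve, 0 of the 7 genes were called in a tissue or in the shared fit, where the share over all genes was 0% in STR, 0.0521% in PFC, 0.0174% in HAB, 0.0174% in SN/VTA and 3.49% in the shared fit. Rxrg in STR and Rgs9 in the shared fit had unadjusted p-values under 0.05, as 8.19% and 15.3% of all genes did, and adjusted p-values of 0.577 and 0.168.

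In STR the largest fitted amplitude was that of Rxrg, 0.18 ± 0.08 with a peak at ZT 21.3 (adjusted p = 0.681 in limma). Its 95% bound allows a change from trough to peak of up to 1.74-fold; the bounds of the other 6 genes lay between 1.22-fold and 1.56-fold. Over the 7 genes the bound was between 1.18-fold and 1.58-fold in PFC, 1.31-fold and 1.52-fold in HAB, and 1.16-fold and 1.25-fold in SN/VTA. The clock output gene Dbp, measured on the same arrays, was called in each tissue, with an amplitude of 0.40 ± 0.05 in STR (adjusted p = 0.0219), 0.65 ± 0.04 in PFC, 0.54 ± 0.06 in HAB and 0.44 ± 0.05 in SN/VTA. Per1, a core clock gene, was not called in STR (0.28 ± 0.05, adjusted p = 0.209), PFC (0.31 ± 0.07, adjusted p = 0.188) or HAB (0.18 ± 0.05, adjusted p = 0.738) and was called in SN/VTA (0.41 ± 0.04, adjusted p = 0.00907). Of 12 core clock genes tested, 3 were called in STR, 6 in PFC, 3 in HAB and 6 in SN/VTA, so that a lack of a call at 12 arrays per tissue does not show that a gene has no rhythm.

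**Figure D4:**
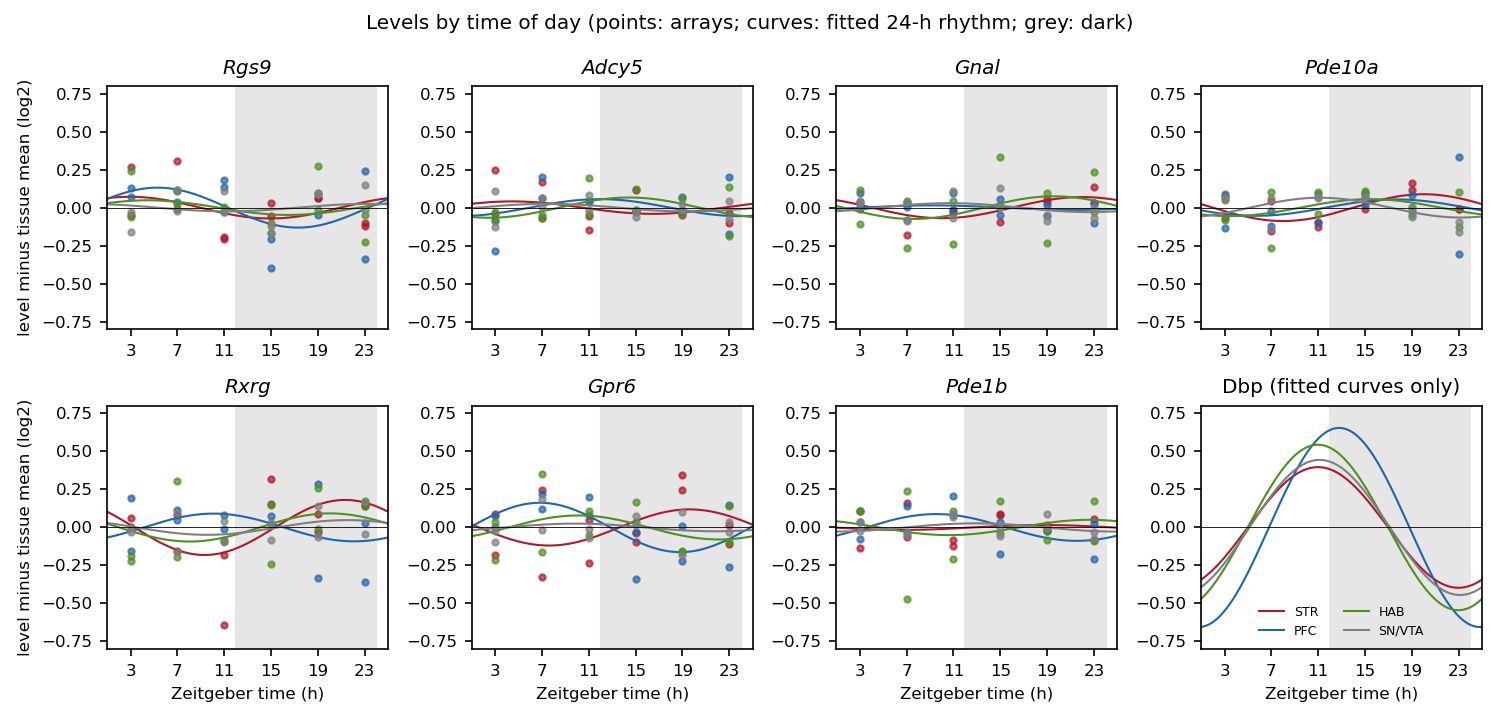
Level minus the tissue mean (vertical axis, log2) against Zeitgeber time in hours for each gene; points are arrays, curves the fitted 24-h rhythms and grey the dark period. The curves of the 7 genes stay near 0, the largest in STR being that of Rxrg at 0.18, while the Dbp curves (last panel, fitted curves only) reach 0.40 to 0.65.

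Within STR the lowest of the 6 time means was at ZT 11 for 6 of the 7 genes, and at ZT 7 for Gnal. The same time held the lowest STR mean of 19.3% of all genes tested, and of 6 of the 11 medium spiny neuron markers. With 1 STR array left out the count of genes lowest at ZT 11 was between 4 and 6, and it was 6 under both other scalings. Rxrg had the widest range of time means, 0.65, or 1.57-fold, with 9.03 at ZT 11 and 9.68 at ZT 15. Its pairs of arrays, replicate 1 then replicate 2, were 9.45 and 9.51 at ZT 3, 9.29 and 9.53 at ZT 7, 8.81 and 9.26 at ZT 11, 9.76 and 9.60 at ZT 15, 9.42 and 9.53 at ZT 19, and 9.59 and 9.60 at ZT 23. Both ZT 11 arrays were below the other 10, and replicate 1 was the lowest. The range of time means was 0.39 for Gpr6, 0.35 for Rgs9, 0.25 for Pde10a, 0.20 for Adcy5, 0.19 for Pde1b and 0.16 for Gnal.

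Rgs9 was low on both ZT 11 arrays, at 11.16 and 11.17, and at 11.24 and 11.26 on the ZT 23 arrays, and was highest on replicate 2 of ZT 7, at 11.67. Gpr6 was highest at ZT 19, at 8.71 and 8.61, and its replicates at ZT 7 were 8.03 and 8.61, nearly the whole range of the gene in STR. Averaged over the 7 genes, the deviation from the STR mean was -0.15 and -0.14 on the ZT 11 arrays and -0.14 on replicate 1 of ZT 7, where 1, 0 and 0 of the 7 genes were above their own STR mean. On replicate 2 of ZT 3 and of ZT 7 all 7 genes were above it, with average deviations of 0.13 and 0.15. The mean of the 11 medium spiny neuron markers was 9.80, 9.83 and 9.81 on the 3 low arrays, the lowest values of the 12, and 9.97 and 9.99 on the 2 high ones, within a range of 9.80 to 10.03. The mean of the cortical markers was highest on replicate 1 of ZT 15, at 7.58, and lowest on replicate 2 of ZT 11, at 6.86. The part of these markers in the time means was not tested.

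**Figure D5:**
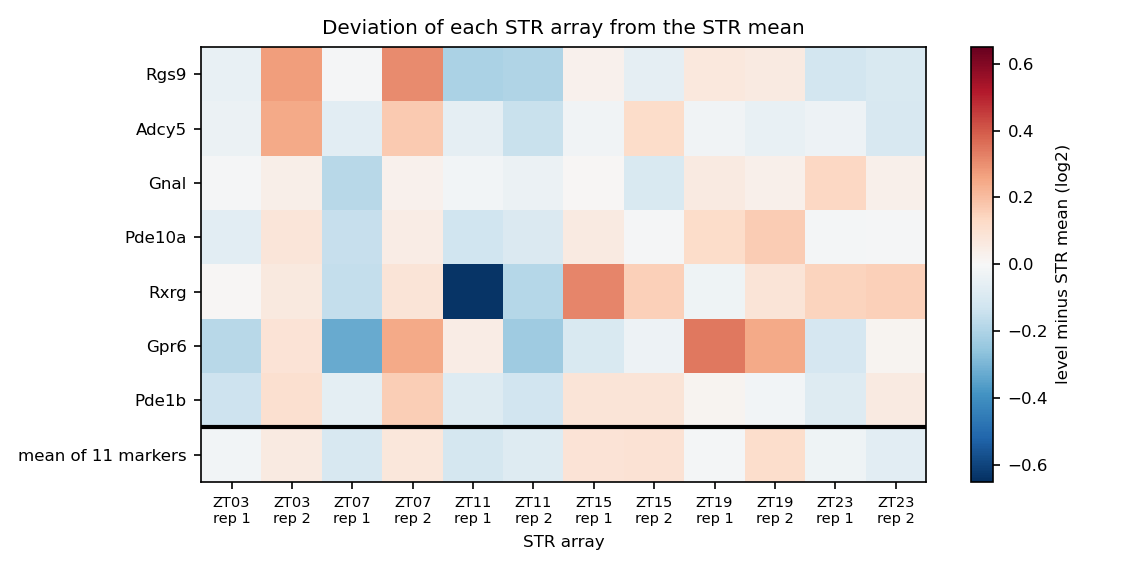
Deviation of each STR array (columns, by time and replicate) from the STR mean for each gene (rows, colour scale in log2) and, under the line, for the mean of the 11 medium spiny neuron markers. The ZT 11 columns and replicate 1 of ZT 7 are mostly blue, replicate 2 of ZT 3 and ZT 7 red in all 7 gene rows, and the deepest blue cell is Rxrg on replicate 1 of ZT 11.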

How the data were processed

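RNA of 4 mouse brain tissues at 6 times in 2 daily cycles was measured on 48 Affymetrix Mouse Gene 2.0 ST arrays. The authors' deposited values were read as log2 signals, 1 row per probe set, from their span of 1.09 to 13.65; how background was corrected, probes summarised and arrays normalized is not given in the sources used here. Per the labels' protocols, RNA of 3 mice was pooled for each array, total RNA was isolated on RNeasy columns and labelled with the WT Pico kit. Of 41345 rows, 23521 carried 1 symbol in the platform annotation, 1814 several and 16010 are unnamed here. The highest-mean row stood for a gene (22180 genes), and 17274 with a mean of at least 5.05, the 30th percentile of rows, were tested. All columns were matched to samples by name, and 0 columns were left unused.

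Tests used R 4.3.3 and limma 3.58.1 (lmFit, eBayes): tissue contrasts in a model of 24 groups, and rhythms as the joint F test of a 24-h cosine and sine, with Benjamini-Hochberg adjustment over the genes tested. Scripts were tested on simulated data; the data.table package (1.17.8), Python 3.11.15, pandas 2.3.3, numpy 2.4.6 and matplotlib 3.10.9 served tables and figures. The number of arrays limits the precision, and no detection calls were used. Replicate numbers mark the daily cycle, per the labels, so numbers pair samples by day; the differences between replicates correlated at a mean r of 0.0160 over 276 pairs of groups (-0.18 to 0.41). The members and gene lists were chosen with earlier results of these data known. Named were the 7 genes, up to 4 genes per list by the size of the STR difference, tissue-defining markers, Dbp and Per1, and the closest genes by Pearson r; exceptions are stated. Alternatives were the filter, both scalings, averaging rows, a replicate block, a trended prior, each cycle alone, adjusted p alone, tissue alone, time as a factor, a shared spread, and leaving out each array; other scalings and omissions for the ZT 11 count were added after seeing the data. Adora2a, Ppp1r1b and other genes whose rows carry several symbols were not analysed here, and some items are not reported here.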

Additional observations from a re-analysis of the deposited data

How the results depend on the processing

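The 7 genes were called higher in STR in each of the 59 alternatives run for each comparison, 48 of which left out 1 array; the lowest difference was that of Gnal against SN/VTA, 1.08 with each array centred on its median. That scaling shifted the median of all genes by -0.19 for STR minus SN/VTA, -0.12 for PFC minus SN/VTA and -0.14 for HAB minus SN/VTA. With it, 17.9% of the genes called between STR and SN/VTA were higher in STR (37.5% as reported) and 1025 genes were lower (559 as reported), 23.8% of those between PFC and SN/VTA were higher in PFC (33.7%), 35.9% of those between HAB and SN/VTA were higher in HAB (55.8%), and 1 of the 7 genes, Rxrg, passed for PFC against SN/VTA. By adjusted p alone, with no minimum size, 5 of the 7 passed for PFC against SN/VTA, 4 for HAB against SN/VTA and 5 for PFC against HAB; over all genes 5328, 7019 and 5666 were then higher in STR than in SN/VTA, PFC and HAB, 7791, 5753 and 6501 lower, and 12976, 11696 and 12511 passed in the other 3 pairs. None of the 7 was called rhythmic in any alternative, with a lowest adjusted p of 0.168, and of 0.291 with 1 array left out. The replicate block, which pairs samples by cycle, changed no call of the 7 genes; it gave 20 rhythmic genes in PFC and 18 in SN/VTA, against 31 and 28. Counts of rhythmic genes in STR, PFC, HAB and SN/VTA, 3, 31, 3 and 28 as reported, were 140, 239, 49 and 17 with one shared spread, 31, 229, 8 and 149 with a trended prior, 5, 77, 5 and 50 with a filter at the 50th percentile, and 1 to 3, 13 to 26, 0 to 5 and 8 to 21 with 1 array left out. With no filter they were 20 in PFC and 12 in SN/VTA, with centred arrays 13 in SN/VTA, and with time as a factor 0 in STR, 9 in PFC and 3 in SN/VTA; the shared rhythm then had 603 genes (958 as reported). A difference of rhythm, 5 genes as reported, was called for 3 with rows averaged, 2 with time as a factor, 9 with a trended prior and 3 to 7 with 1 array left out. The cause of these moves was not tested. Without detection calls, the limit set by background could not be given.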
